A study of Caenorhabditis elegans with 12 samples.

Results

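The comparison described here is the interaction between the length of L1 arrest and *daf-2* RNAi in *Caenorhabditis elegans*, and it drew on 12 of the 12 libraries of the study. For each gene and each letter (A, B or C), the level in the library labelled EV (empty vector) was subtracted from that in the library labelled *daf-2* RNAi of the same letter and arrest length, on the log2(CPM + 1) scale, with CPM being the deposited value, a read count scaled by the size of its library. The mean of the 3 differences after 1 day of arrest was then taken from the mean of the 3 differences after 8 days. A value above 0 thus means that the RNAi difference was more positive after the long arrest, and a value below 0 that it was more negative. Genes that reached 1 CPM in 3 or more libraries were tested, 12830 of the 12894 listed. Most genes named below were then picked by their values in this contrast.

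All animals were N2 (Bristol), the wild-type strain. Embryos hatched into medium without food, where the first larval stage stops developing, and were held there for 1 day (control) or 8 days (starved). Live larvae, 1000 per condition, were then fed HT115 bacteria carrying either the empty vector (EV) or *daf-2* RNAi at 20 °C. Whole early adults were frozen when eggs appeared, about 52 h after feeding for the 1-day groups and about 68 h for the 8-day groups. The 4 groups, 1-day EV, 1-day *daf-2* RNAi, 8-day EV and 8-day *daf-2* RNAi, had 3 libraries each, described as biological replicates. Arrest length and recovery time changed together in all libraries, so their parts in any value below cannot be told apart.

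*daf-2* encodes the insulin/IGF receptor of the worm. When the receptor is active, a kinase cascade through AGE-1 and AKT keeps the transcription factor DAF-16 out of the nucleus, and when receptor signalling is low, DAF-16 enters the nucleus and turns on stress resistance and metabolic genes. The same pathway governs survival of L1 arrest and is known for lasting effects of early starvation on the adult.

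The libraries held 21150912 to 30037731 reads over the listed genes. *daf-2* itself, the targeted gene, was at 188, 156 and 91.6 CPM in the 1-day EV libraries A, B and C, and at 317, 202 and 118 CPM in those labelled *daf-2* RNAi. After 8 days it was at 193, 153 and 102 CPM with EV and at 706, 289 and 111 CPM in the libraries labelled *daf-2* RNAi. The listed level was therefore higher, not lower, in the library labelled RNAi in 6 of 6 pairs, against what a knockdown label implies, and every direction given below rests on the labels. Its own interaction was 0.47 ± 0.33 (SE, adjusted p = 0.334), with overlapping pair differences and an exact two-sided permutation p of 0.6 (3 against 3 pairs, smallest possible p 0.1). *sod-3*, a superoxide dismutase gene that DAF-16 turns on, was higher in the library labelled RNAi in each of the 6 pairs.

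The RNAi difference depended on arrest length for 770 genes (limma, pair of letter and arrest length as a block, Benjamini-Hochberg adjusted p under 0.05, here termed called), which is 6.00% of the genes tested. The interaction was above 0 for 224 genes (1.75%) and below 0 for 546 (4.26%). Among the genes below 0, the RNAi differences had a median of -0.02 after 1 day and -0.85 after 8 days on the log2 scale. Among those above 0, the medians were 0.00 and 0.45. The most negative interactions among named genes were in the *pud* genes and the dehydrogenase gene *dhs-26*, followed by cuticle genes such as *abu-14* and *cut-2*, and the genes above 0 included the fibrillarin gene, germline RNA granule genes and ribosomal protein genes. The interaction was at least 1 log2 unit in size, a 2-fold difference between the 2 RNAi ratios, for 128 of the genes below 0 and 9 of those above. Among all 12830 genes tested this held for 152.

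These counts depended on the pairing of libraries by letter. With no replicate block, limma called 0 genes, the smallest adjusted p was 0.297 and 912 genes had an unadjusted p under 0.05, against 4059 with the block. With a block of the 3 letters shared by both arrest lengths, 63 genes were called, 6 above 0 and 57 below. Each of the 6 pairs mattered too: leaving out the 1-day pair A raised the count to 1901, and leaving out the 1-day pair B or C, or the 8-day pair A, B or C, lowered it to 88, 61, 92, 150 or 226. All 770 genes kept their sign without each pair in turn. Their pair differences did not overlap between the arrests, so leaving out a pair could not have changed a sign. Of the 770, 50 remained called each time. Of the 84 called genes picked by the naming rule, 24 remained called each time: *hil-5*, the 6 *pud* genes, *dhs-26*, *abu-14*, *cut-2*, *chtb-1*, *col-165*, *col-74*, *ptr-25*, *tts-2*, *acs-22*, *acox-1.2*, *dpy-10*, *cutl-28*, *wrt-1*, *pqn-73*, *pqn-13*, *hbl-1* and *vha-5*. So did *sqt-3*, *noah-2*, *col-121* and *clec-209*, which are named below outside that rule. Rescaling the columns to the same sum moved the split to 111 above 0 and 870 below.

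**Figure D1:**
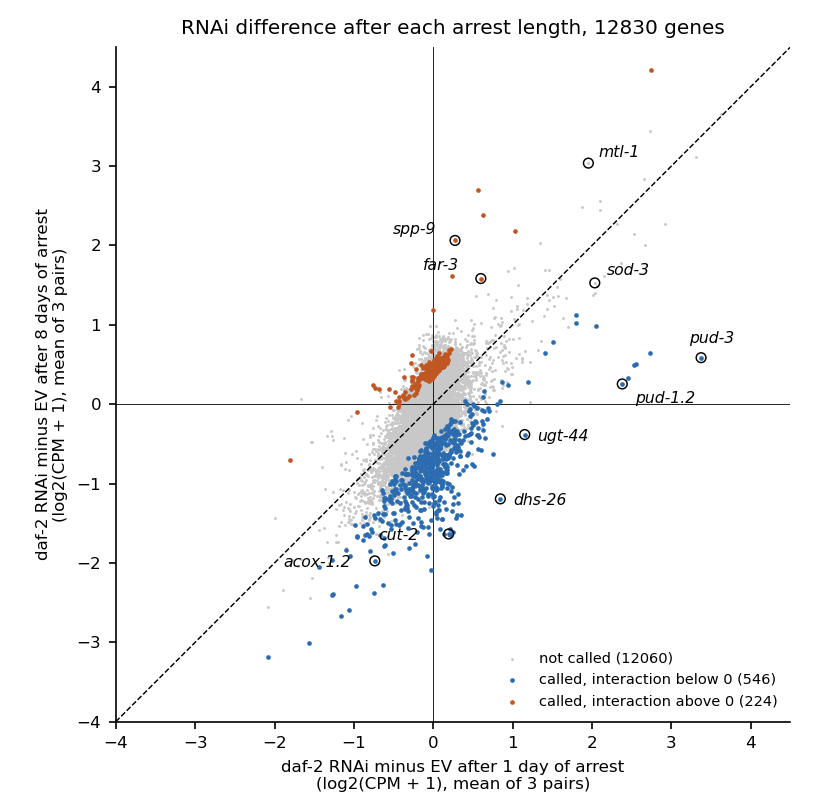
RNAi difference (library labelled *daf-2* RNAi minus EV, mean of 3 pairs, log2(CPM + 1)) after 1 day of arrest on the horizontal axis and after 8 days on the vertical axis, 1 point per tested gene, with the dashed line marking equal differences. The 546 genes called below 0 lie under the line, mostly near 0 on the horizontal axis, with the *pud* genes far to the right, and the 224 called above 0 lie over it.

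The plot of the RNAi difference after each arrest length separates several shapes. Of the 546 genes below 0, 287 (52.56%) were lower in the libraries labelled RNAi after both arrests. Another 238 (43.59%) had a mean difference above 0 after 1 day and below 0 after 8 days. The remaining 21 (3.85%) were higher with RNAi after both, and these included the *pud* genes. An interaction below 0 itself makes the fall larger after 8 days in the 287 genes and the rise smaller in the 21. Of the 224 genes above 0, 109 (48.66%) were higher with RNAi after both arrests. Another 111 (49.55%) were lower after 1 day and higher after 8, and 4 (1.79%) were lower after both. Of the genes not called, 38.05% were lower after both and 36.62% higher after both. A further 10.68% of them were higher after 1 day and lower after 8, and 14.65% the reverse.

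The 8-day EV group stood at one end of the 4 groups for most called genes. It had the highest group mean for 499 of the 546 genes below 0 (91.4%, against 41.4% of all tested genes) and the lowest for 209 of the 224 above 0 (93.3%, against 39.3%). For the genes below 0, the median over genes of the group mean was 10.9 CPM in 1-day EV and 10.3 CPM in 1-day *daf-2* RNAi. It was 22.2 CPM in 8-day EV and 11.6 CPM in 8-day *daf-2* RNAi. For the genes above 0, these medians were 112.6 and 109.1 CPM after 1 day, and 82.8 CPM with EV and 105.9 CPM with RNAi after 8 days. The interaction contains the 8-day EV group, so these positions describe the called genes and are no separate test.

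The overall size of the RNAi difference also differed between the arrests in every pair. Its root mean square over the tested genes was 0.394, 0.334 and 0.350 log2 units in the 1-day pairs A, B and C, with a mean of 0.359 ± 0.031 (SD, n = 3). In the 8-day pairs it was 0.516, 0.499 and 0.575, with a mean of 0.530 ± 0.040 (SD, n = 3). The 8-day values all lay above the 1-day values, and the exact two-sided permutation p was 0.1, the smallest that 3 pairs against 3 allow.

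The *pud* genes, named for proteins that are more abundant in *daf-2* mutants, had 5 of the 6 most negative interactions among the named genes, the other being *dhs-26*. All 6 of the 6 tested were called below 0, with a median of -2.10 against 0.02 over all genes tested. *pud-3* was at 7.04, 2.9 and 6.19 CPM in the 1-day EV libraries and at 45.2, 51.8 and 102 CPM in the 1-day libraries labelled RNAi. After 8 days it was at 46.8, 29.8 and 109 CPM with EV and at 76.4, 36.6 and 186 CPM with RNAi. The 1-day EV libraries were the lowest 3 of the 12, and the 8-day EV libraries already overlapped those of the 1-day RNAi group. Its RNAi differences on the log2 scale were 2.52, 3.76 and 3.84 after 1 day and 0.69, 0.29 and 0.77 after 8 days, which did not overlap. In CPM the differences did overlap, at 38.14, 48.86 and 95.68 after 1 day and 29.55, 6.86 and 77.73 after 8 days. The interaction of *pud-3* was -2.79 ± 0.29 (SE, adjusted p = 0.00377).

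*pud-4* followed the same order at lower values, with 1.54, 0.951 and 1.16 CPM in 1-day EV, 9.91, 11 and 22.9 CPM in 1-day RNAi, 10.6, 6.36 and 25.6 CPM in 8-day EV and 17.9, 8.17 and 49 CPM in 8-day RNAi libraries, and an interaction of -2.08 ± 0.30 (SE, adjusted p = 0.00956). *pud-1.1* went from 20.6, 18.1 and 20.4 CPM with EV to 77.8, 118.6 and 151 CPM with RNAi after 1 day, and from 80.7, 60.4 and 176 to 102, 71.2 and 236 CPM after 8 days. The 1-day EV values of *pud-1.1* were again below those of the other 9 libraries. Interactions were -2.12 ± 0.20 (SE, adjusted p = 0.00377) for *pud-1.1* and -2.13 ± 0.26 (SE, adjusted p = 0.00486) for its near-copy *pud-1.2*. *pud-2.1* and *pud-2.2* gave -2.05 ± 0.22 (SE, adjusted p = 0.00377) and -2.03 ± 0.19 (SE, adjusted p = 0.00377). As fold values on the log2(CPM + 1) scale, *pud-3* was 10.4 times higher with RNAi after 1 day and 1.5 times higher after 8 days, and *pud-2.2* 5.75 and 1.41 times.

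In the WBcel235 annotation the 6 genes lie together on chromosome V between 2322038 and 2330930, a span of 8893 bases in which no other gene was tested. *pud-1.1* and *pud-1.2*, and *pud-2.1* and *pud-2.2*, are near-identical copies, so reads may be split or shared within each couple, and they are not independent of each other. The calls held for all 6 genes without each pair in turn, the highest adjusted p being 0.0389 for *pud-4*. With the 3-letter block, *pud-3*, *pud-1.1*, *pud-2.1* and *pud-2.2* were called, while *pud-1.2* (adjusted p = 0.0507) and *pud-4* (0.0748) were not.

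**Figure D2:**
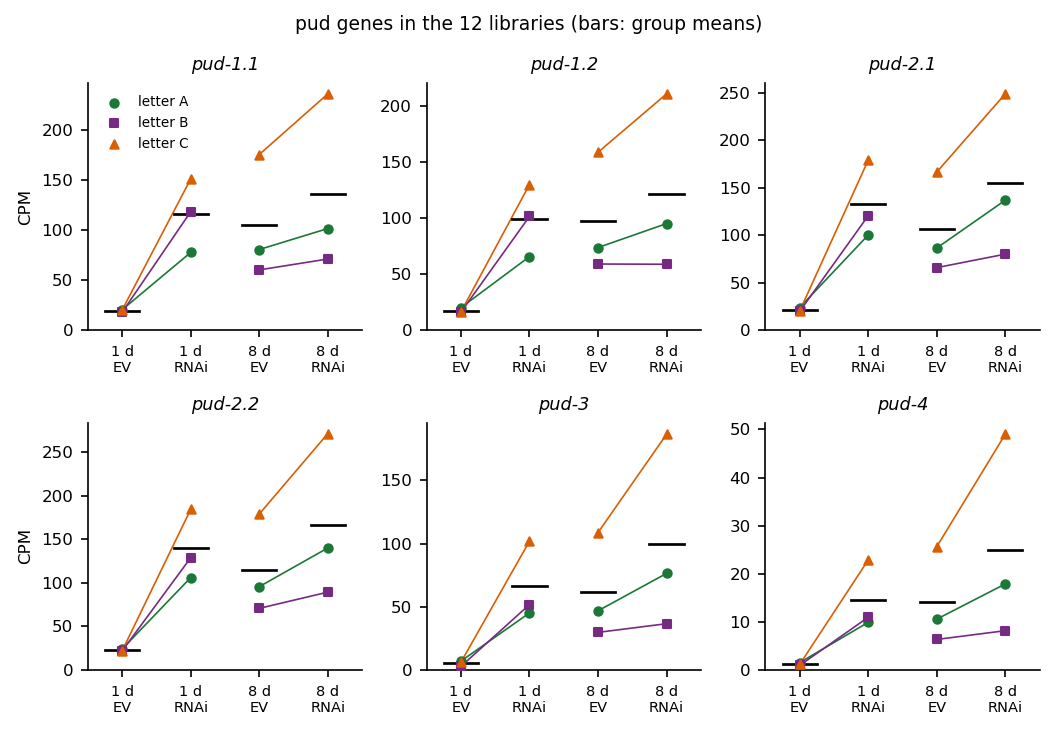
CPM of the 6 *pud* genes in the 12 libraries, by group (1 d and 8 d are days of arrest, EV and RNAi the labels), with points for letters A, B and C, lines joining the libraries of a pair and bars for group means. The 1-day EV libraries are lowest in each panel, and the rise from EV to RNAi is steep after 1 day and slight after 8 days, from 46.8 to 76.4 CPM for *pud-3* in pair A.

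Genes whose products build the cuticle or act in the moult were called below 0 in several of the lists described. Of 65 tested moulting, hedgehog-related and patched-related genes, 21 were called below 0 and 0 above (32.3%, against 4.26% of all genes), with a median interaction of -0.51 against 0.02 over all genes. Of 23 cuticlins, 6 were called below 0 and 0 above, with a median of -0.60. Of the 6 furrow collagens, 4 were called below 0 and 0 above, and of 103 other cuticle collagens 14 were called below 0 and 1 above. Of 53 pharyngeal cuticle genes, 9 were called below 0 and 0 above. The list medians stayed below 0 under both other scalings.

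*cut-2*, a cuticlin gene, was at 1.73, 0.124 and 0.651 CPM in 1-day EV and 2.11, 0.322 and 0.848 CPM in 1-day RNAi libraries. It was at 125, 47.1 and 51.5 CPM in 8-day EV and 28.8, 18.1 and 17.7 CPM in 8-day RNAi libraries. Its level was at most 2.11 CPM in the 6 libraries taken after 1 day, and after 8 days every EV library exceeded every RNAi library. The interaction was -1.83 ± 0.21 (SE, adjusted p = 0.00377). Other called cuticlin genes were *cut-3* (-1.56 ± 0.22), *cutl-28* (-1.38 ± 0.20), *cutl-9* (-1.25), *cutl-2* (-1.09) and *cut-6* (-1.07).

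Low 1-day levels were counted over all genes called below 0, cuticle genes or not: 105 of the 546 (19.2%, against 7.08% of all tested genes) had a mean under 1 CPM in both 1-day groups. For such genes a fall with RNAi after 1 day could hardly have been registered, and the interaction mainly records the fall after 8 days. With a pseudocount of 0.25 in place of 1, the number of called genes was 542, and *cut-2* stood at -2.05.

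Collagen genes called below 0 gave the same picture at higher and lower levels. *col-165* was at 0.248, 0.0414 and 0.093 CPM in 1-day EV, 0.622, 0.0715 and 0.479 CPM in 1-day RNAi, 39.2, 25.9 and 28.5 CPM in 8-day EV and 11, 9.04 and 12.2 CPM in 8-day RNAi libraries, with an interaction of -1.72 ± 0.21 (SE, adjusted p = 0.00498). *dpy-10*, one of the collagens of the annular furrows, was above the floor after 1 day, at 11.2, 4.67 and 7.35 CPM with EV and 9.81, 4.86 and 6.86 CPM with RNAi. After 8 days *dpy-10* was at 28.9, 27.9 and 29.6 CPM with EV and 14.1, 11.1 and 12.8 CPM with RNAi. Its RNAi differences of -0.17, 0.05 and -0.09 after 1 day scattered around 0, while those after 8 days were -0.99, -1.26 and -1.14, and the interaction was -1.06 ± 0.15 (SE, adjusted p = 0.00881). A large part of its exon bases, 780, is shared with T14B4.19, so its reads may be split.

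The furrow collagens *dpy-7* (-0.99 ± 0.20), *dpy-2* (-0.98 ± 0.23) and *dpy-3* (-0.77) were called with it. With a pseudocount of 0.25 the calls of *dpy-7* (adjusted p = 0.0564) and *dpy-2* (0.0886) were lost. Then 1 of the 6 furrow collagens was called below 0, against 389 of all 12830 genes. *sqt-3* (-1.17), *dpy-17* (-0.83), *dpy-14* (-0.71), *col-43* (-1.63 ± 0.27), *col-74* (-1.59 ± 0.19) and *col-121* (-1.48) were called among the other collagens. Whether called or not, 25 of the 103 other cuticle collagens and 2 of the 6 furrow collagens had an interaction above 0. Of these, 1 gene was called. *col-139* was at 296, 707 and 372 CPM in 1-day EV and 150, 654 and 246 CPM in 1-day RNAi libraries, then at 104, 111 and 64.5 CPM in 8-day EV and 138.8, 116 and 69 CPM in 8-day RNAi libraries. The RNAi library was lower in all 3 of its 1-day pairs and higher in all 3 of its 8-day pairs, and the interaction was 0.75 ± 0.19 (SE, adjusted p = 0.0465). That call was lost under quantile normalization (adjusted p = 0.0995).

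Among the moulting genes, *ptr-25*, which encodes a patched-related membrane protein, was at 3.12, 0.744 and 1.49 CPM in 1-day EV and 2.9, 0.786 and 1.29 CPM in 1-day RNAi libraries. It was at 18.5, 11.2 and 16.18 CPM in 8-day EV and 6.19, 2.7 and 4.17 CPM in 8-day RNAi libraries. The 8-day EV libraries were the highest 3 of the 12, and the interaction was -1.58 ± 0.18 (SE, adjusted p = 0.00377). Of the 10 other patched-related genes called, *ptr-4* (-1.08), *ptr-15* (-1.04) and *ptr-19* (-1.0) were the most negative.

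*mlt-8* (-1.12), *mlt-9* (-0.99) and *mlt-11* (-0.80), genes known for moulting defects when their function is lost, were called below 0. So were *noah-1* (-0.69) and *noah-2* (-0.98), which encode zona pellucida domain proteins of the apical matrix. The hedgehog-related genes *wrt-1* (-1.56 ± 0.20), *grl-7* (-1.06), *grl-16* (-1.45 ± 0.34) and *qua-1* (-0.70) were also called. The call of *grl-16* was lost with a pseudocount of 0.25 (adjusted p = 0.0534) and of 5 (0.0527), and under quantile normalization (0.0636).

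In the pharyngeal cuticle list, *abu-14* was at 0.396, 0.124 and 0.14 CPM in 1-day EV and 0.587, 0.107 and 0.701 CPM in 1-day RNAi libraries. It was at 33.1, 14.8 and 17.6 CPM in 8-day EV and 8.93, 4.85 and 5.04 CPM in 8-day RNAi libraries, with an interaction of -1.86 ± 0.21 (SE, adjusted p = 0.00377). All 6 of the 1-day values lay below 1 CPM, and after 8 days the lowest EV library was above the highest RNAi library. *pqn-73* (-1.69 ± 0.19) and *pqn-13* (-1.40 ± 0.20), which encode glutamine- and asparagine-rich proteins, moved likewise.

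*hbl-1*, which encodes a zinc finger factor that times larval cell fates, was the single called gene of the 12 tested heterochronic genes (8.33% called below 0, against 4.26% of all genes). It was at 20.5, 5.13 and 7.12 CPM in 1-day EV and 14.7, 4.08 and 9.18 CPM in 1-day RNAi libraries. After 8 days it was at 76.4, 54.5 and 59 CPM with EV and 28.4, 16.4 and 19.4 CPM with RNAi. The 8-day EV libraries were the highest 3 of the 12, the RNAi library was lower in each 8-day pair, and the 1-day pairs went both ways. The interaction was -1.41 ± 0.19 (SE, adjusted p = 0.00857).

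**Figure D3:**
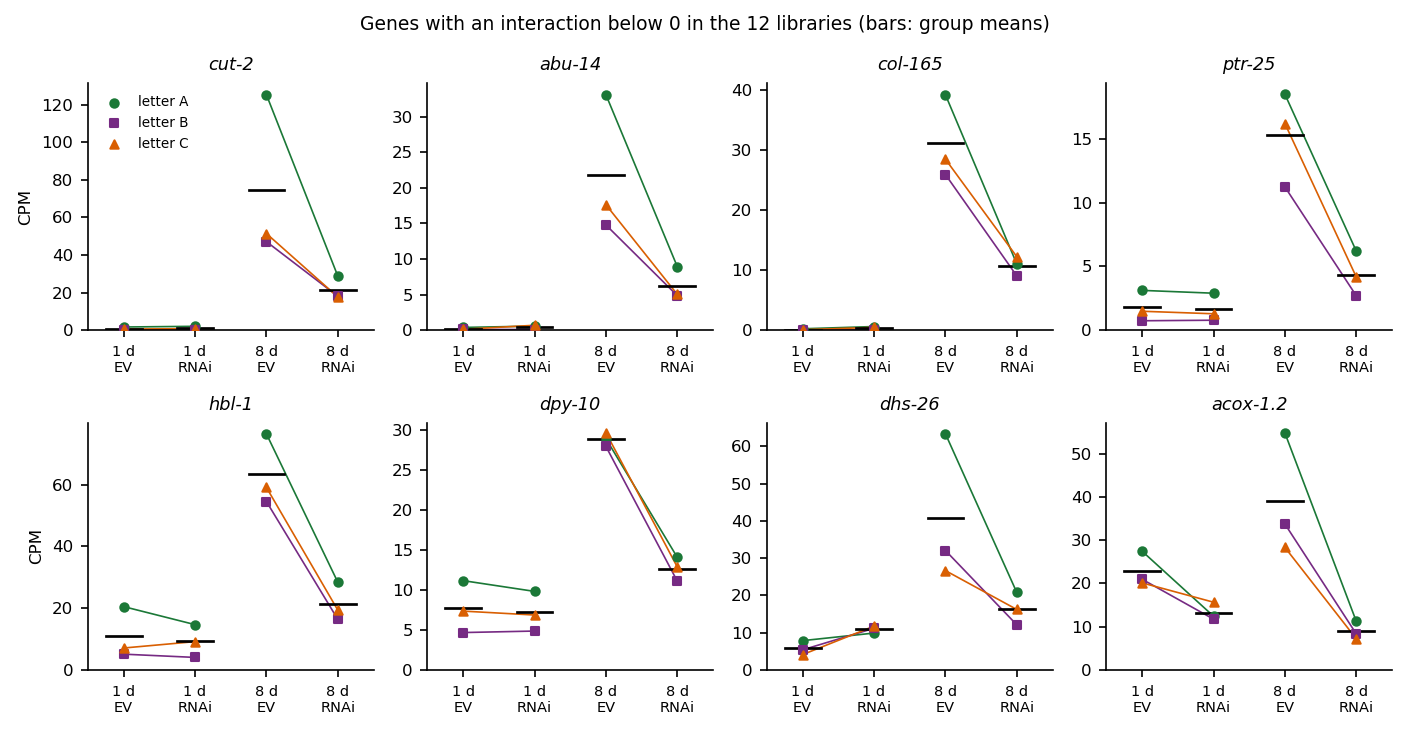
CPM of 8 genes with an interaction below 0 in the 12 libraries, by group, with points for letters A, B and C, lines joining the libraries of a pair and bars for group means. In *cut-2*, *abu-14*, *col-165*, *ptr-25*, *hbl-1* and *dpy-10* the 8-day EV libraries stand above all others, for *cut-2* at 125, 47.1 and 51.5 CPM, and the 8-day RNAi libraries lie lower in every pair.

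Markers of the hypodermis, the tissue that secretes the cuticle, were summed in each library. The summed CPM of *col-19*, *dpy-7*, *rol-6* and *elt-3* in the RNAi library, divided by that in the EV library, was 0.66, 0.856 and 0.825 in the 1-day pairs and 0.559, 0.635 and 0.541 in the 8-day pairs. The sums ran over 1596 to 2319 CPM in 1-day EV, 1053 to 1985 in 1-day RNAi, 1248 to 1367 in 8-day EV and 676 to 832 in 8-day RNAi libraries. Nearly all of the sum was *col-19*, the adult collagen used to check the stage (1574 of 1596 CPM in the 1-day EV library A), so the ratios are mostly those of 1 gene. *col-19* had an interaction of -0.42 ± 0.14 (SE, adjusted p = 0.0881) and was called under quantile normalization (adjusted p = 0.0227). Of the 4 markers 1 was called, *dpy-7*, which is also in the furrow collagen list. The stage of the animals and the share of hypodermis were not measured, and their part in the result was not tested. In whole animals, fewer cells of a type and less RNA per cell cannot be told apart.

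Of 58 tested fatty acid oxidation genes, 7 were called below 0 (12.1%, against 4.26% of all genes) and 0 above, with a median of -0.19. *acox-1.2*, which encodes a peroxisomal acyl-CoA oxidase, was at 27.4, 21 and 20.1 CPM in 1-day EV and 12.4, 11.8 and 15.7 CPM in 1-day RNAi libraries. After 8 days it was at 54.8, 33.7 and 28.3 CPM with EV and 11.2, 8.34 and 7.21 CPM with RNAi. The RNAi library was lower in all 6 pairs, and by more in each 8-day pair than in any 1-day pair, with an interaction of -1.24 ± 0.19 (SE, adjusted p = 0.0119).

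*daf-22* (-0.54) and *dhs-28* (-0.45), which act with the acyl-CoA oxidases in shortening the side chains of pheromones, were called below 0. So were *acox-1.6* (-0.85 ± 0.16) and the acyl-CoA synthetase genes *acs-22* (-0.76 ± 0.11) and *acs-1* (-0.55). *fasn-1*, which encodes fatty acid synthase, was the single called gene of 20 in fatty acid synthesis and desaturation (5.0% called below 0, against 4.26% of all genes). It was at 373, 337 and 255 CPM in 1-day EV, 281, 240.4 and 236 CPM in 1-day RNAi, 583, 419.8 and 441 CPM in 8-day EV and 306, 240 and 237 CPM in 8-day RNAi libraries, with an interaction of -0.54 ± 0.11 (SE, adjusted p = 0.0291). The RNAi library was the lower one in all 6 pairs.

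*dhs-26*, a short-chain dehydrogenase gene, reversed between the arrests. It was at 7.88, 5.42 and 4.14 CPM in 1-day EV and 9.91, 11.2 and 11.8 CPM in 1-day RNAi libraries, and at 63.4, 32 and 26.7 CPM in 8-day EV and 20.8, 12.1 and 16.23 CPM in 8-day RNAi libraries. RNAi libraries were higher in 3 of 3 pairs after 1 day and lower in 3 of 3 after 8 days, and the interaction was -2.04 ± 0.28 (SE, adjusted p = 0.00827). Some of its exon bases are shared with the neighbouring gene ZK816.1, so its reads may be split.

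In sulphur amino acid metabolism, *cth-1* and *cth-2*, which encode cystathionine gamma-lyases, gave -0.65 ± 0.15 and -0.64 ± 0.11. They were 2 of the 4 genes called below 0 among 27 in propionate, one-carbon and phosphatidylcholine metabolism (14.8%, against 4.26% of all genes), with 0 called above. *pyk-2*, a pyruvate kinase gene, gave -0.44 ± 0.10 and was the single call among 32 genes of glycolysis, the glyoxylate cycle, trehalose and glycerol (3.1%, against 4.26% of all genes).

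Detoxification genes were called below 0 more often than above. Of 152 tested, 20 were below 0 (13.2%, against 4.26% of all genes) and 1 above, with a median of -0.31. *ugt-44*, which encodes a UDP-glucuronosyltransferase, was at 46.1, 27.6 and 55.5 CPM in 1-day EV and 63.4, 104 and 122 CPM in 1-day RNAi libraries, and at 122, 86.8 and 144 CPM in 8-day EV and 87.3, 74.3 and 105 CPM in 8-day RNAi libraries. The RNAi library was higher in each 1-day pair and lower in each 8-day pair, giving -1.53 ± 0.27 (SE, adjusted p = 0.0198). The cytochrome P450 genes *cyp-35A3* (-1.18 ± 0.25), *cyp-25A1* (-1.08) and *cyp-29A2* (-0.89) were below 0, and *cyp-13A11* (1.16) was above.

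Among 130 tested immune effector genes, 10 were called below 0 (7.69%, against 4.26% of all genes) and 4 above (3.08%, against 1.75%). With a pseudocount of 0.25, 6 were called below 0, and with equal column sums 19, against 389 and 870 of all 12830 genes. *spp-9* and *spp-12*, which encode saposin-like proteins of the antimicrobial type, were the most positive of the list. *spp-9* was at 0, 0.0827 and 0 CPM in 1-day EV and 0.0345, 0.429 and 0.295 CPM in 1-day RNAi libraries, and at 0, 0.0392 and 0.186 CPM in 8-day EV and 2.52, 6.35 and 2.47 CPM in 8-day RNAi libraries. The 3 libraries labelled *daf-2* RNAi after 8 days were the only ones above 1 CPM. *spp-9* therefore passed the filter of 1 CPM in 3 libraries only through the group where it was high. The interaction of *spp-9* was 1.79 ± 0.31 (SE, adjusted p = 0.0174), a size that depends on the pseudocount, and 2.76 with a pseudocount of 0.25.

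*spp-12* ran in parallel, with 0.207, 0.322 and 0.184 CPM in 1-day RNAi and 2.28, 4.07 and 2.17 CPM in 8-day RNAi libraries, at most 0.297 CPM in any EV library, and an interaction of 1.38 ± 0.23 (SE, adjusted p = 0.0156). It too passed the filter only through the 8-day RNAi libraries. *nlp-29*, an antimicrobial peptide gene of the epidermis, was at 6.79, 10.6 and 6.88 CPM in 1-day EV and 3.76, 4.36 and 2.73 CPM in 1-day RNAi libraries. It was at 9.8, 8.16 and 13.2 CPM in 8-day EV and 9.48, 7.88 and 11.3 CPM in 8-day RNAi libraries. The RNAi library was lower in all 6 pairs, by less after 8 days, and the interaction was 0.87 ± 0.17 (SE, adjusted p = 0.0276). The lysozyme genes *lys-2* (-0.92) and *lys-6* (-0.80) and the C-type lectin genes *clec-209* (-1.13) and *clec-204* (-0.79) were below 0.

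Genes above 0 had smaller interactions, and few held without each pair. *far-3*, which encodes a fatty acid and retinol binding protein, had the most positive interaction among named genes that averaged 5 CPM or more. It was at 15.5, 18 and 29.6 CPM in 1-day EV and 29.7, 23.4 and 43.6 CPM in 1-day RNAi libraries, and at 22.7, 27.3 and 38.8 CPM in 8-day EV and 63.6, 75.5 and 144 CPM in 8-day RNAi libraries. The 8-day RNAi libraries were the highest 3 of the 12, and RNAi was the higher one in all 6 pairs. The interaction was 0.98 ± 0.16 (SE, adjusted p = 0.0156), and the call was lost without the 1-day pair B or C. It shares exon bases with *far-5*.

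*hil-5*, a linker histone gene, was at 309, 314 and 296 CPM in 1-day EV and 271, 271 and 284 CPM in 1-day RNAi libraries, and at 172, 230.5 and 161 CPM in 8-day EV and 251, 297 and 239 CPM in 8-day RNAi libraries. RNAi was lower in 3 of 3 pairs after 1 day and higher in 3 of 3 after 8 days. Its interaction was 0.64 ± 0.09 (SE, adjusted p = 0.00956), and it was the single named gene above 0 that stayed called without each pair in turn, with a highest adjusted p of 0.0469.

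*fib-1*, which encodes the nucleolar methyltransferase fibrillarin, was at 978, 1139 and 1003 CPM in 1-day EV and 942, 943 and 745 CPM in 1-day RNAi libraries. It was at 648, 681 and 523 CPM in 8-day EV and 802, 814 and 724 CPM in 8-day RNAi libraries. The 8-day EV libraries were the lowest 3 of the 12, and the interaction was 0.59 ± 0.13 (SE, adjusted p = 0.0321). Under quantile normalization it was 0.379 and the call was lost (adjusted p = 0.0544). *garr-1* gave 0.61 ± 0.11 (SE, adjusted p = 0.0216), and the RNA-binding protein genes *rbm-3.1* and *rbm-3.2* gave 0.72 ± 0.13 and 0.57 ± 0.14. The call of *rbm-3.2* was lost with equal column sums (adjusted p = 0.0539) and under quantile normalization (0.0766).

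The cytosolic ribosomal protein genes leaned one way with few calls. All 79 tested had an interaction above 0, with a median of 0.37, but 6 were called (7.59%, against 1.75% of all genes). The median RNAi difference of the 79 genes was -0.27, -0.32 and -0.52 in the 1-day pairs and 0.05, -0.16 and 0.09 in the 8-day pairs, so the 2 sets of pairs did not overlap. Under quantile normalization the median was 0.21, against 0.04 over all genes, with 77 genes above 0 and 1 called. There 178 of all 12830 genes were called above 0, so the list had no larger share called than all genes. With equal column sums or a pseudocount of 0.25, 2 ribosomal protein genes were called, against 111 or 153 of all 12830 called above 0. *rps-29* was at 297, 359.9 and 388 CPM in 1-day EV and 236, 272 and 261 CPM in 1-day RNAi libraries, and at 202, 264 and 256 CPM in 8-day EV and 212, 257 and 302 CPM in 8-day RNAi libraries, with an interaction of 0.52 ± 0.10 (SE, adjusted p = 0.0276). RNAi was lower in each 1-day pair, and the 8-day pairs went both ways. Of 59 translation factor and tRNA synthetase genes, 3 were called above 0 and 0 below, among them *ife-3* (0.51 ± 0.13), which encodes a cap-binding eIF4E. The call of *ife-3* was lost under quantile normalization (adjusted p = 0.0668) and with a pseudocount of 0.25 (0.052).

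Germline genes behaved in a similar way. All 20 P granule genes tested had an interaction above 0, with a median of 0.37, where 6631 of all 12830 genes were above 0, and 4 were called (20.0%, against 1.75% of all genes). With equal column sums 2 were called above 0 and with quantile normalization 1, against 111 and 178 of all 12830 genes. P granules are RNA and protein granules of the germline. *pgl-1*, which encodes one of their scaffold proteins, was at 571, 632 and 599.9 CPM in 1-day EV and 647, 629 and 562 CPM in 1-day RNAi libraries, and at 362, 418 and 305 CPM in 8-day EV and 514, 575 and 482 CPM in 8-day RNAi libraries. The 8-day EV libraries were the lowest 3 of the 12. The interaction was 0.51 ± 0.11 (SE, adjusted p = 0.0318), and the call was lost when any pair other than the 1-day pair A was left out.

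*hrde-1*, which encodes the nuclear Argonaute that carries RNAi inheritance, was at 1050, 996 and 725 CPM in 1-day EV and 1051, 973 and 826 CPM in 1-day RNAi libraries. It was at 641, 742 and 424 CPM in 8-day EV and 883, 1022 and 706 CPM in 8-day RNAi libraries, with an interaction of 0.50 ± 0.12 (SE, adjusted p = 0.0434). RNAi was the higher one in 3 of 3 pairs after 8 days, whereas the 1-day pairs went both ways. *wago-4*, another germline Argonaute gene, gave 0.53 ± 0.13 (SE, adjusted p = 0.0432). *mip-1*, a P granule gene, gave 0.37 ± 0.09 (SE, adjusted p = 0.04). Under quantile normalization the calls of *hrde-1* (adjusted p = 0.0515), *wago-4* (0.0572) and *mip-1* (0.0872) were lost, that of *mip-1* also with equal column sums (0.0719).

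Of 43 oocyte and eggshell genes, 2 were called above 0 (4.65%, against 1.75% of all genes) and 1 below (2.33%, against 4.26%). The 2 above were *egg-4* (0.42 ± 0.11) and *egg-5* (0.46 ± 0.11), near-identical pseudophosphatases of egg activation between which reads may be shared, and the 1 below was *cpg-22* (-0.99 ± 0.22). The cell cycle genes *cdc-25.1* (0.39 ± 0.10) and *hcp-3* (0.36 ± 0.09), the latter encoding the centromeric histone, were the 2 called of 42 (4.76%, against 1.75% of all genes). Both calls were lost under quantile normalization (adjusted p = 0.0849 and 0.144), with equal column sums (0.0603 and 0.103) and with a pseudocount of 0.25 (0.0509 and 0.0541). The meiotic genes *chk-2* (0.58 ± 0.15), *klp-15* (0.57 ± 0.11) and *xnd-1* (0.57 ± 0.11) were called above 0 as well, *chk-2* not with equal column sums (adjusted p = 0.0539) or a pseudocount of 0.25 (0.0508). The call of *egg-4* was lost under quantile normalization (0.0651), with equal column sums (0.0534) and with a pseudocount of 0.25 (0.0534).

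Sperm genes had the highest list median, 0.58, with 0 of 44 called by limma. An unadjusted p under 0.05 was seen for 6 of the 44, against 4059 of all 12830 genes tested. The median RNAi differences of the sperm genes were 0.27, -0.10 and 1.41 in the 8-day pairs A, B and C and 0.01, -0.01 and 0.03 in the 1-day pairs, so pair C stood apart and the 2 sets overlapped. The lowest adjusted p of a sperm gene was 0.0652, for *spe-44*, which was called under quantile normalization (adjusted p = 0.044).

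**Figure D4:**
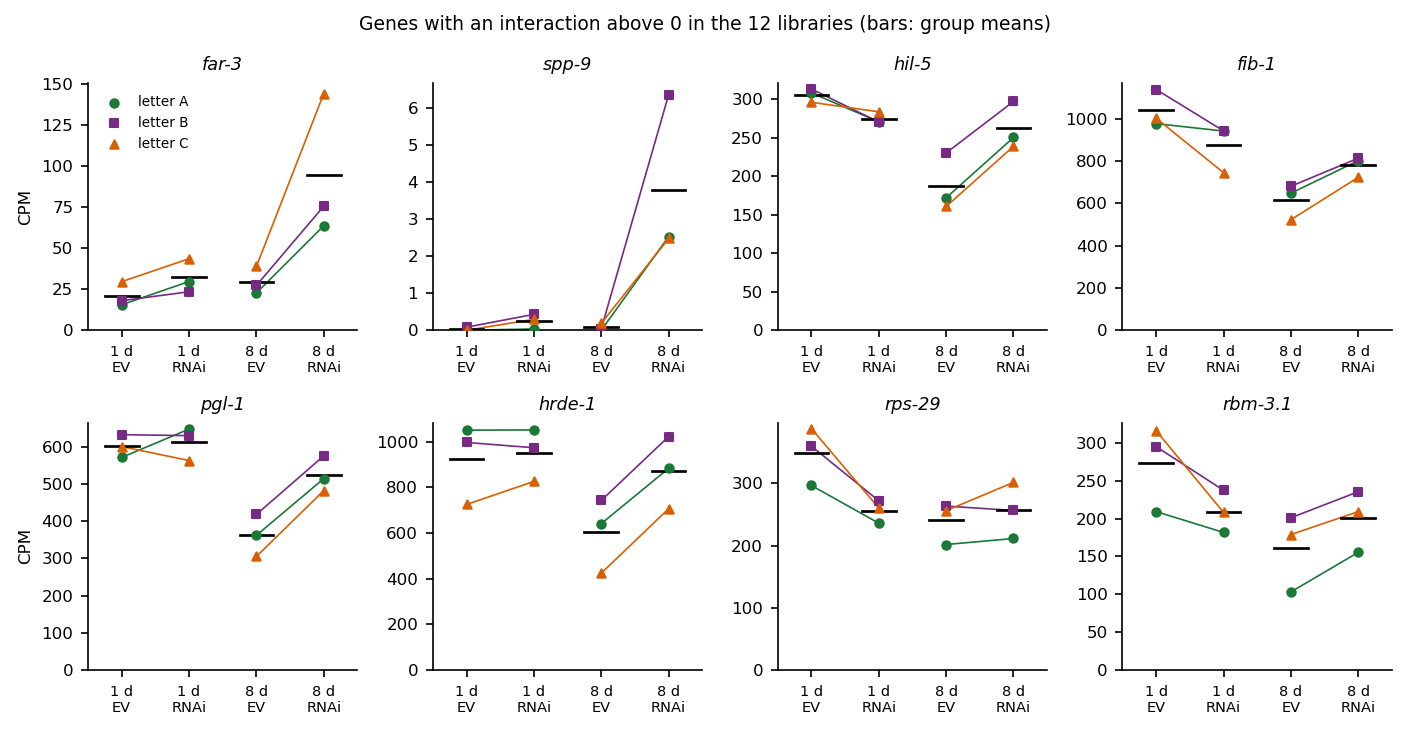
CPM of 8 genes with an interaction above 0 in the 12 libraries, by group, with points for letters A, B and C, lines joining the libraries of a pair and bars for group means. In *hil-5*, *fib-1* and *rbm-3.1* the lines fall after 1 day and rise after 8 days in all 3 pairs, and *spp-9* exceeds 1 CPM in the 8-day RNAi libraries only. The filter of 1 CPM in 3 libraries kept *spp-9* through those libraries alone.

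Germline markers were summed in the same way. The summed CPM of *glh-1*, *pgl-1*, *gld-1* and *him-3* in the RNAi library, divided by that in the EV library, was 1.06, 0.960 and 0.994 in the 1-day pairs and 1.32, 1.31 and 1.67 in the 8-day pairs. The same ratio for the oocyte markers was 1.27, 0.975 and 1.19 after 1 day and 1.44, 1.41 and 1.66 after 8 days. Of the germline markers 1 was called, *pgl-1*, which is also in the P granule list. For the intestine markers, whose sum was nearly all *vit-2*, the ratio was 0.598, 0.784 and 1.18 after 1 day and 0.437, 0.507 and 0.691 after 8 days. The germline sums ran over 2166 to 2632 CPM in 1-day EV, 2153 to 2670 in 1-day RNAi, 1177 to 1779 in 8-day EV and 1969 to 2336 in 8-day RNAi libraries. All 4 markers were listed for each of these 3 tissues, none of them at 0 in any library. The germline and oocyte ratios did not overlap between the arrests, and those of the embryo and hypodermis markers did not either. Among all single genes, the log2 pair differences lay apart in this way for 19.7% upward and 17.9% downward. Within 8 days, the EV and RNAi sums did not overlap for the germline, oocyte and hypodermis markers. The share of all genes that lay apart in this second way was not counted, so it may not be particular to these tissues. Of the sperm markers 2 of 4 were listed, and the ratio was 1.04, 0.732 and 1.38 after 1 day and 1.53, 0.777 and 3.86 after 8 days. The ratio for embryo markers, 3 of 4 listed, was 1.18, 1.02 and 1.11 after 1 day and 1.38, 1.3 and 1.25 after 8 days. Body wall muscle (3 of 4 listed) had 0.611, 0.631 and 0.881 after 1 day and 0.551, 0.632 and 0.791 after 8 days. For the pharynx (4 of 4 listed) it was 0.352, 0.508 and 0.721 after 1 day and 0.61, 0.515 and 0.729 after 8 days, and for neurons (4 of 4 listed) 0.916, 0.858 and 1.02 after 1 day and 0.845, 1.02 and 1.01 after 8 days. The part of tissue make-up in the result was not tested.

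Among genes known to respond to DAF-16, those it activates did not pass the test and 2 of those it represses did. Of all 12830 genes tested, 4059 had an unadjusted p under 0.05, 2015 of them above 0. Of 20 tested genes that DAF-16 activates, limma called 0 while 9 had an unadjusted p under 0.05, 8 of them below 0, and the median interaction was -0.23. With equal column sums it called 3 of them below 0, with quantile normalization 2, and with either other pseudocount 1. Of all 12830 genes, 870 were called below 0 with equal column sums and 612 with quantile normalization. With pseudocounts of 0.25 and 5 these were 389 and 650. *sod-3* was at 2.23, 1.49 and 2.09 CPM in 1-day EV and 9.46, 11.1 and 12.5 CPM in 1-day RNAi libraries, and at 3.54, 2.71 and 4.31 CPM in 8-day EV and 11.5, 9.87 and 14.8 CPM in 8-day RNAi libraries. The RNAi libraries were the highest 6 of the 12, and the interaction was -0.51 ± 0.19 (SE, adjusted p = 0.113). *mtl-1*, a metallothionein gene, was at 0.149, 0.0414 and 0.14 CPM in 1-day EV and 2.45, 1.39 and 8.59 CPM in 1-day RNAi libraries. After 8 days it was at 0.635, 1.25 and 1.15 CPM with EV and 10.5, 8.96 and 37.4 CPM with RNAi. Its interaction was 1.08 ± 0.54 (SE, adjusted p = 0.19), with overlapping pair differences.

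*fat-5*, a desaturase gene, had the lowest adjusted p of the DAF-16-activated list, with an interaction of -0.55 ± 0.15 (SE, adjusted p = 0.0531), and it was called with equal column sums (adjusted p = 0.032) and quantile normalization (0.0258). Of the 8 genes that DAF-16 represses, 2 were called below 0 (25.0%, against 4.26% of all genes). *dod-19* was at 84, 97.2 and 114 CPM in 1-day EV and 55.1, 89.8 and 145 CPM in 1-day RNAi libraries, and at 151, 188 and 257 CPM in 8-day EV and 75.8, 72.7 and 139.6 CPM in 8-day RNAi libraries, with an interaction of -0.95 ± 0.21 (SE, adjusted p = 0.035). In the 8-day group the RNAi library was lower in 3 of 3 pairs, against 2 of 3 in the 1-day group. *dod-23* gave -0.69 ± 0.12 (SE, adjusted p = 0.0171) and was lower with RNAi in all 6 pairs.

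Limma called 0 of the 22 tested genes of the insulin receptor pathway and 0 of the 15 insulin-like peptide genes, with 4 and 1 at an unadjusted p under 0.05. For this and the other lists in this paragraph, the count over all genes tested was 4059 of 12830. *daf-16* had an interaction of -0.01 ± 0.13 (SE, adjusted p = 0.968), and the lowest adjusted p of the pathway was 0.0536 for *akt-2* (-0.47 ± 0.13), which encodes one of the AKT kinases and was called with equal column sums (adjusted p = 0.0366). It called 0 of the 7 vitellogenin and yolk receptor genes too, with 5 at an unadjusted p under 0.05 and a median of -0.63. *vit-1* and *vit-4* were called below 0 with equal column sums (adjusted p = 0.0434 and 0.0446) and with quantile normalization (0.027 and 0.0306), and *vit-5* with equal column sums (0.0436). *vit-2*, a yolk protein gene, was at 30600, 14370 and 8483 CPM in 1-day EV and 18250, 11240 and 10130 CPM in 1-day RNAi libraries, and at 43200, 24500 and 15470 CPM in 8-day EV and 18720, 12340 and 10660 CPM in 8-day RNAi libraries. The RNAi library was lower in 3 of 3 pairs after 8 days and in 2 of 3 after 1 day, and the interaction was -0.63 ± 0.37 (SE, adjusted p = 0.258). An interaction of this size was thus not detectable against the spread between its pairs. Limma called 0 of 33 proteasome genes (median 0.25, 15 at an unadjusted p under 0.05) and 0 of 51 nuclear-encoded respiratory chain genes (median 0.15, 7 at an unadjusted p under 0.05).

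**Figure D5:**
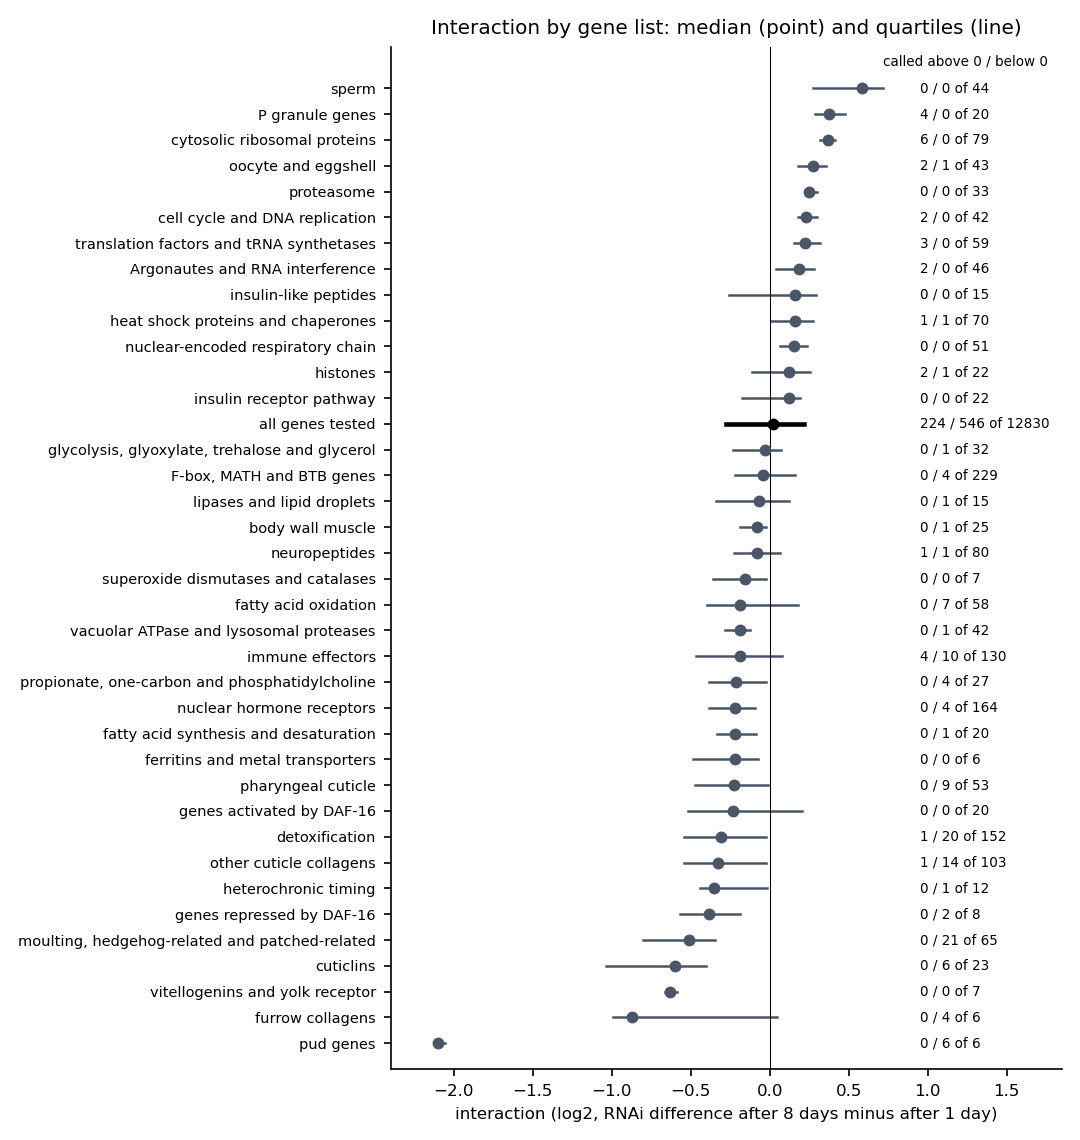
Median (point) and quartiles (line) of the interaction on the log2 scale for 37 gene lists and for all genes tested (black), with the numbers called above 0, called below 0 and tested at the right. The *pud* genes lie farthest to the left, the furrow collagens, vitellogenins and cuticlins follow, and the sperm, P granule and ribosomal protein lists lie farthest to the right.

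The plot of list medians shows where the calls fell and where they did not. Of 164 nuclear hormone receptor genes, 4 were called below 0 (2.44%, against 4.26% of all genes) and 0 above, led by *nhr-91* (-1.02 ± 0.21). Another of them, *nhr-270*, was at 1.54, 1.26 and 1.67 CPM in 8-day EV and at most 0.865 CPM in any other library. It passed the filter of 1 CPM in 3 libraries only through the 8-day EV group, where it was high. Of 80 neuropeptide genes, *nlp-29* was called above 0 and *nlp-40* (-0.42 ± 0.11), an intestinal peptide gene that times defecation, below, the latter not with a pseudocount of 0.25 (adjusted p = 0.0529). Of 42 vacuolar ATPase and lysosomal protease genes, *vha-5* (-0.68 ± 0.09 (SE, adjusted p = 0.00498)) was called, which encodes a membrane subunit of the pump used by the hypodermis in secretion. *vha-5* was at 199, 139.7 and 163 CPM in 8-day EV and 119.1, 90.3 and 107 CPM in 8-day RNAi libraries, with no overlap, and at 121, 151 and 126 against 118.6, 154 and 134 CPM after 1 day. Of 25 body wall muscle genes, *unc-52* (-0.52 ± 0.12), which encodes the basement membrane proteoglycan perlecan, was called below 0. Among 22 histone genes, *hil-5* and *his-74* (0.47 ± 0.10) were above 0 (9.09%, against 1.75% of all genes) and *hil-7* (-1.54 ± 0.26) below (4.55%, against 4.26%). The neuropeptide list had 1.25% called each way. The vacuolar ATPase and muscle lists had 2.38% and 4.00% called below 0.

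On the CPM scale without logarithms, the sign of the interaction stayed the same for all 770 called genes. The 3 pair differences in CPM after 8 days lay wholly above those after 1 day for 223 of the 224 genes above 0, where 18.2% of all genes did so. They lay wholly below for 522 of the 546 genes below 0, where 20.0% of all genes did so. On the log2 scale the corresponding shares of all genes were 19.7% and 17.9%, and all 770 called genes were among them. The called genes were chosen by these same pair differences, so the counts describe them and are no separate test.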

How the data were processed

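Whole-animal RNA of early adult worms was sequenced in 12 libraries, 3 in each of 4 groups, grouped by their labels. The deposited table holds 1 normalised signal value per gene and library, named CPM in its title. The columns sum to 889133 to 1097908, so they are near, not exactly at, 1 common total. Per the submitters' processing notes, Bowtie 1.1.2, HTSeq 0.12.4 and edgeR were used, with no role stated. The genome build is not given in the sources used here. Names and coordinates come from the Ensembl 115 annotation of WBcel235 and RefSeq locus tags, which matched 12718 of 12894 identifiers. Counting by strand was not stated, and 23 of 104 named genes share exon bases with another protein-coding gene. The values are whole multiples of 1 step per library (within 0.01 read), which gave the read totals. In 3 columns the smallest value is 2 such steps, so there the step is inferred and the totals rest on it.

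A gene was kept if 3 or more libraries reached 1 CPM (64 genes left out). Log2(CPM + 1) values were fitted in limma 3.58.1 (R 4.3.3) with a mean-variance trend, 1 term per pair (arrest length and letter), an RNAi term and the interaction. Residual degrees of freedom were 4 and prior ones 6.48. P-values were adjusted by Benjamini-Hochberg over all genes tested, two-sided, with a threshold of 0.05. The fit was tested on simulated data. Fold changes on this scale understate changes of low genes.

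The labels pair libraries by letter without saying what a letter marks, so p-values measure the spread between these pairs. Deviations from group means correlated within each same-letter pair, at 0.695, 0.55 and 0.541 after 1 day and 0.821, 0.596 and 0.593 after 8 days, against -0.633 to 0.142 between letters.

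Named genes were, among called genes averaging 5 CPM or more, with a gene class symbol and pair differences that did not overlap, the 15 most positive and 15 most negative interactions. Added to these were up to 3 called genes from each of 37 lists (or, with none, the member with the lowest p), the vitellogenins, *col-19*, *fasn-1*, *pod-2*, *sod-3*, *daf-16*, *mtl-1* and *daf-2*. Other members of the lists named in the text were chosen after their values were seen. The comparison, the lists and the tests were chosen with earlier results of these data known. Tissue marker sums are sums of CPM. The sperm and embryo markers, and those of muscle, pharynx and neurons, were summed too. Alternatives changed the block, pseudocount, filter, scaling, variance model and the libraries included.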

Additional observations from a re-analysis of the deposited data

Results flagged for a closer look

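The RNAi difference after 8 days differed from that after 1 day for 770 genes in the limma test of the difference itself. Of the 104 genes named by the rule 84 passed it, and their interactions on the log2 scale are grouped here by role. Adjusted p-values for the main ones stand beside the results above. Among the *pud* genes the interaction was -2.79 for *pud-3*, -2.13 for *pud-1.2*, -2.12 for *pud-1.1*, -2.08 for *pud-4*, -2.05 for *pud-2.1* and -2.03 for *pud-2.2*. Collagen genes gave -1.72 for *col-165*, -1.63 for *col-43*, -1.59 for *col-74*, -1.06 for *dpy-10*, -0.99 for *dpy-7*, -0.98 for *dpy-2* and 0.75 for *col-139*. Cuticlin and pharyngeal cuticle genes gave -1.83 for *cut-2*, -1.56 for *cut-3*, -1.38 for *cutl-28*, -1.86 for *abu-14*, -1.69 for *pqn-73* and -1.40 for *pqn-13*. Moulting, hedgehog-related and patched-related genes gave -1.58 for *ptr-25*, -1.56 for *wrt-1* and -1.45 for *grl-16*, and the heterochronic gene *hbl-1* gave -1.41. Lipid and other metabolic genes gave -2.04 for *dhs-26*, -1.24 for *acox-1.2*, -0.85 for *acox-1.6*, -0.76 for *acs-22*, -0.54 for *fasn-1*, -0.65 for *cth-1*, -0.64 for *cth-2*, -0.62 for *cbl-1* and -0.44 for *pyk-2*. Among detoxification genes and nuclear hormone receptors the values were -1.53 for *ugt-44*, -1.24 for *ugt-43*, -1.18 for *cyp-35A3*, -1.02 for *nhr-91*, -0.90 for *nhr-270* and -0.83 for *nhr-145*. The filter of 1 CPM in 3 libraries kept *nhr-270* through the 8-day EV group alone. Immune effectors and secreted peptides gave 1.79 for *spp-9*, 1.38 for *spp-12*, 1.19 for *fipr-22*, 0.87 for *nlp-29* and -0.42 for *nlp-40*. The DAF-16-repressed genes gave -0.95 for *dod-19* and -0.69 for *dod-23*. Germline, oocyte and cell cycle genes gave 0.53 for *wago-4*, 0.51 for *pgl-1*, 0.37 for *mip-1*, 0.50 for *hrde-1*, 0.46 for *egg-5*, 0.42 for *egg-4*, -0.99 for *cpg-22*, 0.39 for *cdc-25.1*, 0.36 for *hcp-3*, 0.58 for *chk-2*, 0.57 for *klp-15* and 0.57 for *xnd-1*. Ribosomal protein and translation genes gave 0.52 for *rps-29*, 0.51 for *rpl-43*, 0.48 for *ubl-1*, 0.51 for *ife-3*, 0.49 for *eif-3.J*, 0.40 for *eif-2A* and 0.54 for *mrps-10*. Histone and chaperone genes gave 0.64 for *hil-5*, -1.54 for *hil-7*, 0.47 for *his-74*, 0.52 for *hsp-60* and -0.50 for *hsp-43*. Genes of the F-box list gave -0.92 for *fbxa-128*, -0.84 for *fbxa-72* and -0.71 for *fbxa-27*, and -0.52 for *unc-52* and -0.68 for *vha-5* were the values of the muscle and vacuolar ATPase lists. The remaining genes gave 0.98 for *far-3*, 0.72 for *rbm-3.1*, 0.61 for *garr-1*, 0.59 for *fib-1*, 0.57 for *rbm-3.2*, 0.55 for *herd-1*, 0.54 for *let-504*, 0.53 for *gpch-1*, -1.78 for *chtb-1* and -1.56 for *tts-2*. No explanation was weighed for these values.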

How the results depend on the processing

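With the replicate block of pairs, 770 genes were called. Counts moved by over 1.5 times with no replicate block (0 called), with a replicate block of 3 letters (63, all among the 770) and with no mean-variance trend (317, 18 above 0). Leaving out 1 pair gave 61 to 1901 calls, leaving out 1 letter in all groups gave 26 to 180, and leaving out 1 library with no replicate block gave 0 to 1. The cause was not tested. A random effect of pairs, chosen after seeing the data, gave 1002 calls, of which 616 were among the 770. Pseudocounts of 0.25 and 5 gave 542 and 895, no filter 779, a filter at an average of 5 CPM 769, equal column sums 981, quantile normalization 790 and a robust prior 790. Of the 84 calls picked by the naming rule, 65 held under quantile normalization, 69 with a pseudocount of 0.25, 76 with equal sums and 22 with the 3-letter block, and none changed sign. Their adjusted p went above 0.05 for 5, 53 and 60 without the 1-day pair A, B or C, and for 51, 47 and 40 without the 8-day pair A, B or C. The interaction of the daf-2 level changed sign, to -0.189, with no replicate block and without the 8-day *daf-2* RNAi library A, reached 1.142 there without the 8-day *daf-2* RNAi library C, and fell to 0.02 without the 8-day pair A. The difference in size of the RNAi differences was 0.172 under quantile normalization and 0.144 under that filter. The planned edgeR and DESeq2 alternatives were not run, because counts are not among the files used here and, in 3 columns, the value of 1 read is only inferred. With 3 pairs per arrest length, 1 pair can decide a call, and genes near 1 CPM have little room to fall.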

Other observations

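Called genes sat side by side in some places, which was looked for after the values were seen. Of 764 called genes with a position, 117 lay next to a gene called in the same direction, and 10 runs held 3 or more. How many such neighbours calls scattered over all tested genes would give was not worked out. The counts therefore do not show that called genes cluster. The longest, on chromosome V, joined the 6 *pud* genes with *clec-209*. On chromosome I, *inx-15* and *inx-16*, which encode gap junction innexins, lay with R12E2.15, R12E2.14 and R12E2.7, at -1.03 to -0.57. On chromosome X, the lipocalin-related genes *lpr-6*, *lpr-5* and *lpr-4* lay together at -1.43 to -0.88. Neighbouring genes can share reads or transcripts, so these are not independent calls.

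A run of 3 genes on chromosome IV between 3892327 and 3895506 had interactions of 1.47 to 2.13, the upper value being the most positive of all genes tested. F56D6.9 was at 0.0991, 0.0414 and 0 CPM in the 1-day EV libraries A, B and C and at 5.87, 4.29 and 8.48 CPM in the 1-day libraries labelled *daf-2* RNAi. After 8 days it was at 0.726, 0.981 and 2.16 CPM with EV and at 30.9, 22.9 and 89.7 CPM with RNAi. The RNAi libraries were the highest 6 of the 12, and those after 8 days the highest 3. *dct-8* was at 5.71, 4.07 and 11.6 CPM in the 8-day RNAi libraries and at no more than 1.00 CPM in any other. F56D6.8 was at 5.22, 4.32 and 14.7 CPM and at no more than 0.811 CPM in the same comparison. Without the 8-day RNAi group, neither *dct-8* nor F56D6.8 would have passed the filter of 1 CPM in 3 libraries. The neighbouring lectin gene *clec-67* was not called.

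Separation of single groups was counted as well. The 3 libraries of 8-day EV lay above the other 9 for 418 of the 546 genes below 0 (76.6%, against 32.3% of all genes), and below the other 9 for 184 of the 224 genes above 0 (82.1%, against 32.2%). The 8-day RNAi libraries lay below the other 9 for 71 of the 546 genes (against 879 of all 12830, or 6.85%) and above them for 11 of the 224 (4.91%, against 7.93%). The 1-day EV libraries lay below the other 9 for 54 of the 546 genes (9.89%, against 6.98%), the *pud* genes among them. The contrast that chose these genes holds the same libraries, so the counts are descriptions.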
